A study of Sus scrofa with 6 samples.

Results

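The CCAAT/enhancer-binding protein (C/EBP) genes were examined in skeletal muscle of UCP1 knock-in (KI) pigs. The 5 genes *CEBPA*, *CEBPB*, *CEBPD*, *CEBPG* and *CEBPZ* were taken by their pig Ensembl symbols from the 30476 genes of the count table, and each symbol matched 1 identifier. The tissue was longissimus dorsi, a large back muscle, of 3 UCP1 KI pigs and 3 WT pigs, all aged 6 months, with 1 RNA-seq library per pig. The UCP1 KI pigs carry a knock-in of *UCP1*, the uncoupling protein of thermogenic fat, that is expressed in adipocytes, and the WT pigs carry none. The sex of the pigs, their kinship and the number of founder clones are not given in the sources used here, and the genotype was not checked against *UCP1* reads. In whole muscle, fewer cells of a type and less RNA per cell cannot be told apart.

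C/EBP proteins are transcription factors with a basic region that binds DNA and a leucine zipper that joins them into dimers with each other and with related proteins such as the ATF factors. *CEBPB* and *CEBPD* are known as early genes that respond to cytokines, glucocorticoids and cyclic AMP, and in differentiating adipocytes they precede *CEBPA*, which sustains the mature state together with *PPARG*. C/EBP gamma lacks an activation domain and works mainly as a dimer partner. The gene *CEBPZ* carries the family name only, since its product is a CCAAT-binding and nucleolar protein of ribosome biogenesis without the leucine zipper. In muscle, *CEBPB* has been linked to satellite cell maintenance and to the transcription of atrophy genes. *CEBPB* mRNA is translated into long activating and short inhibitory isoforms, which counts per gene do not separate.

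The libraries held between 30220951 and 35066624 counts on genes. Levels are given as CPM, the read count relative to a fixed library total, after scaling by edgeR's TMM method, and log2 fold changes are UCP1 KI against WT. A gene was called when its unadjusted p from edgeR's quasi-likelihood test was under 0.05 and its absolute log2 fold change was above 0.5, the limits of the study. Of the 13402 genes tested, 515 (3.84%) were called higher and 582 (4.34%) lower, 8.19% in all, and every UCP1 KI pig lay above every WT pig for 7.59% of the genes and below every WT pig for 7.69%. Where a gene has no counts, up to 3 could have been missed, and 3 counts were worth between 0.0795 and 0.1096 CPM, for counting error only. WT replicate 2 stood apart, with 56.5% of its counts on its 20 most abundant genes against 39.1% to 44.8% in the other libraries. Nothing says that the pigs of a group came from separate litters or were handled separately, so p values measure the spread between these animals only.

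*CEBPB* and *CEBPD* rose in UCP1 KI muscle, whereas *CEBPA*, *CEBPG* and *CEBPZ* did not pass the limits. Thus 2 of the 5 family members were called, both higher, beside 3.84% of all genes tested, and the groups did not overlap for the same 2 genes, beside 15.3% of all genes. *CEBPB* was at 378, 434 and 376 CPM in UCP1 KI replicates 1 to 3 and at 143, 119 and 186 CPM in WT replicates 1 to 3. The lowest UCP1 KI pig was thus well above the highest WT pig. Its mean level was 396 ± 33.1 CPM (SD, n = 3) against 149 ± 34.2 CPM (SD, n = 3), which is 2.65-fold. The log2 fold change of *CEBPB* was 1.41 with a 95% confidence interval of 0.79 to 2.03 and an unadjusted p of 0.000865, the 30th smallest among the 13402 genes of edgeR's test.

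*CEBPD*, the other early C/EBP gene, was at 110, 91.2 and 118 CPM in UCP1 KI replicates 1 to 3 and at 17.6, 39.0 and 24.1 CPM in WT replicates 1 to 3. All UCP1 KI pigs lay above 90 CPM and all WT pigs below 40 CPM. The mean was 106.5 ± 13.9 CPM (SD, n = 3) against 26.9 ± 10.9 CPM (SD, n = 3), a 3.96-fold difference. The log2 fold change of *CEBPD* was 1.99 (95% confidence interval 1.21 to 2.76), and its unadjusted p of 0.000398 was the 19th smallest of edgeR's test.

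After Benjamini-Hochberg adjustment over all genes, edgeR gave adjusted p values of 0.386 for *CEBPB* and 0.280 for *CEBPD*, so that 0 members passed an adjusted limit of 0.05, beside 2 at an unadjusted p under 0.05. DESeq2 on the same genes and counts gave adjusted p values of 0.000223 for *CEBPB* and 5.02e-05 for *CEBPD*, and 2 members passed. DESeq2 put 127 genes (0.948%) under this adjusted limit and edgeR 0, and with the unadjusted limits DESeq2 called 9.77% of the genes and the same number of members, 2. Over the other edgeR settings the adjusted p lay between 0.341 and 0.930 for *CEBPB* and between 0.103 and 0.591 for *CEBPD*, and DESeq2 on all genes with any count gave 0.00079 and 6.62e-05. When 1 pig at a time was removed, the log2 fold change stayed between 1.27 and 1.60 for *CEBPB* and between 1.75 and 2.35 for *CEBPD*, and both genes passed the unadjusted limits every time.

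**Figure D1:**
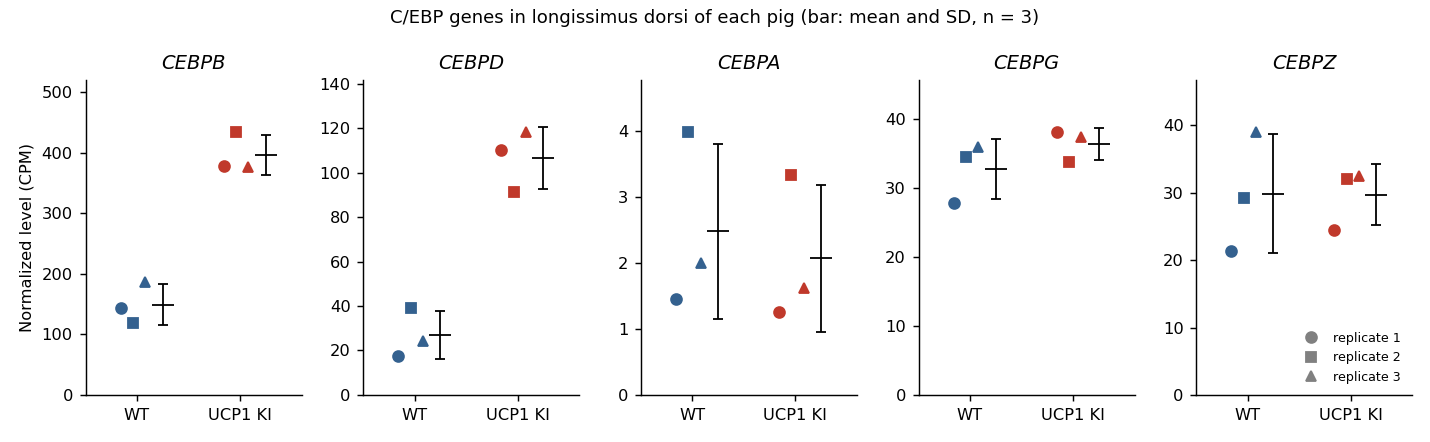
Normalized level (CPM, each panel with its own scale from 0) of the 5 C/EBP genes in each WT pig (blue) and each UCP1 KI pig (red), with the mean and SD of each group (n = 3) as a black bar and the replicate number as the marker shape. For *CEBPB* and *CEBPD* the red points lie wholly above the blue points, at 376 CPM or more against 186 CPM or less and at 91.2 CPM or more against 39.0 CPM or less, while the groups overlap for the other 3 genes.

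*CEBPA*, which marks the later phase of adipocyte differentiation, was counted only 39 to 119 times per library. It was at 1.26, 3.34 and 1.62 CPM in UCP1 KI replicates 1 to 3 and at 1.46, 3.98 and 2.002 CPM in WT replicates 1 to 3. Replicate 2 was the highest pig of each group, and the groups overlapped almost fully. The log2 fold change of *CEBPA* was -0.26, with a 95% confidence interval from -1.50 to 0.99 (unadjusted p = 0.646 in edgeR), so that a halving could not be told from no difference at this depth and spread. Its sign turned without UCP1 KI replicate 1, at 0.00, and without WT replicate 2, at 0.26.

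*CEBPG*, the dimer partner, varied least among the members. Its level was 38.1, 33.8 and 37.4 CPM in UCP1 KI replicates 1 to 3 and 27.8, 34.5 and 35.9 CPM in WT replicates 1 to 3. UCP1 KI replicate 2 lay below 2 of the WT pigs, and the coefficient of variation was 6.28% in UCP1 KI muscle against 13.2% in WT muscle. The log2 fold change of *CEBPG* was 0.15 (95% confidence interval -0.34 to 0.65, unadjusted p = 0.491 in edgeR), and this interval does not reach the fold changes of *CEBPB* or *CEBPD*.

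*CEBPZ* was at 24.5, 32.1 and 32.6 CPM in UCP1 KI replicates 1 to 3 and at 21.4, 29.3 and 39.0 CPM in WT replicates 1 to 3. The lowest and the highest of the 6 pigs were both WT. Its log2 fold change was -0.01, with a 95% confidence interval from -0.66 to 0.64 and an unadjusted p of 0.973 in edgeR. Without UCP1 KI replicate 1 the log2 fold change of *CEBPZ* was 0.12, and without WT replicate 3 it was 0.23. Coefficients of variation within a group ran from 6.28% to 53.6% across the 5 members, and that of *CEBPB* was 8.35% in UCP1 KI muscle against 22.9% in WT muscle.

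**Figure D2:**
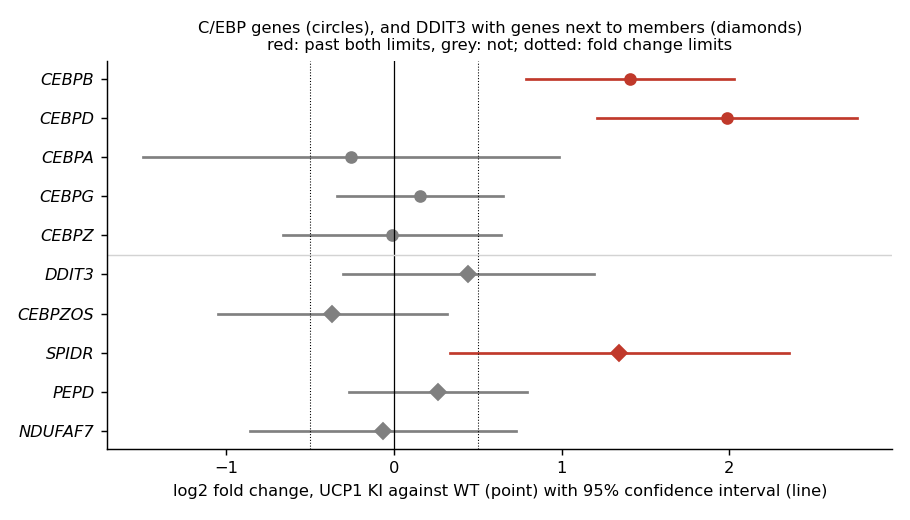
Log2 fold change (UCP1 KI against WT, points) with its 95% confidence interval from edgeR (lines) for the 5 C/EBP genes (circles) and for *DDIT3* and genes next to members (diamonds), red where both limits were passed and grey where not. The intervals of *CEBPB* and *CEBPD* begin at 0.79 and 1.21, to the right of the dotted limit at 0.5, and those of *CEBPA*, *CEBPG* and *CEBPZ* include 0.

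To compare *CEBPB* with its relatives directly, the reads of *CEBPB* were divided by those of each relative within the same library, a ratio that needs no scaling between libraries. In UCP1 KI pigs, log2 of the ratio of *CEBPB* to *CEBPG* was 3.31, 3.68 and 3.33, and in WT pigs 2.36, 1.78 and 2.37. The difference of group means was 1.27, or 2.41-fold, with no overlap. For *CEBPZ*, the log2 ratio of *CEBPB* to it was 3.95, 3.76 and 3.53 in UCP1 KI muscle against 2.74, 2.02 and 2.26 in WT muscle, a difference of 1.41 without overlap.

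The log2 ratio of *CEBPB* to *CEBPA* spread more widely, at 8.21, 7.02 and 7.85 in UCP1 KI muscle against 6.60, 4.89 and 6.53 in WT muscle. UCP1 KI pigs were above WT pigs here too, by 1.69 on average. A relative that did not separate in this way was *CEBPD*. There the log2 ratio was 1.78, 2.25 and 1.67 in UCP1 KI muscle against 3.02, 1.61 and 2.95 in WT muscle, a difference of -0.62 that was smaller than the spread between WT pigs (SD 0.80).

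Two-sided exact permutation tests over the 6 pigs gave p = 0.1 for the ratios to *CEBPA*, *CEBPG* and *CEBPZ*, the smallest p that 3 pigs against 3 allow, and p = 0.4 for the ratio to *CEBPD*. With Benjamini-Hochberg adjustment over the 4 contrasts these exact permutation values were 0.133 and 0.4. The result for *CEBPD* rested on WT replicate 2, the library with the lowest *CEBPB* and the highest *CEBPD* among the WT pigs. Without WT replicate 2 the difference was -1.08 and the groups no longer overlapped, which follows from removing the WT pig that overlapped and is given as a description. The ratio to *CEBPA* moved most among the others, from a difference of 1.69 to 1.13 without that library. As a description, log2 of the ratio of *CEBPD* to *CEBPG* was 1.53, 1.43 and 1.66 in UCP1 KI muscle against -0.65, 0.18 and -0.58 in WT muscle.

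**Figure D3:**
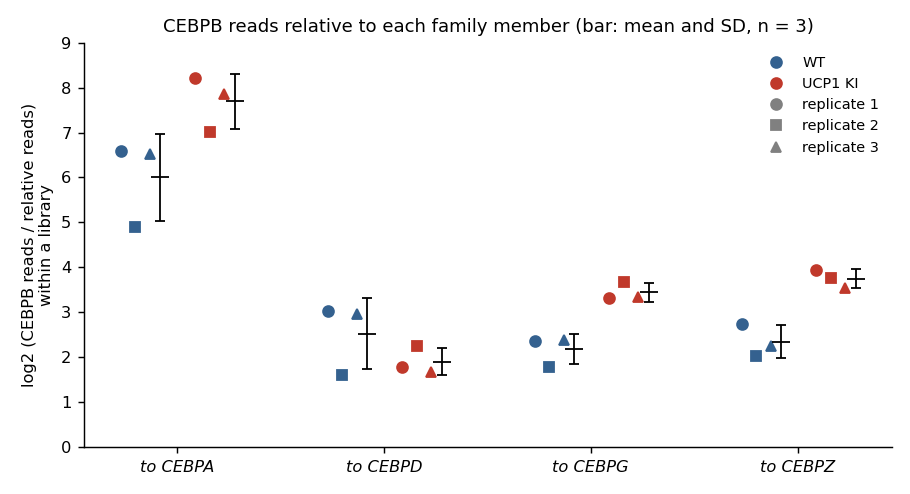
Log2 of the ratio of *CEBPB* reads to the reads of each other C/EBP gene in the same library, for WT pigs (blue) and UCP1 KI pigs (red), with the mean and SD of each group (n = 3) as a black bar. Red lies above blue for *CEBPA*, *CEBPG* and *CEBPZ*, by 1.69, 1.27 and 1.41 on average, and the groups overlap for *CEBPD*, where the blue square of WT replicate 2 lies at 1.61.

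Among 5687 genes with a symbol and a mean of at least 10 CPM, those whose level over the 6 pigs was most like that of *CEBPB* were *SEC63*, *HTATIP2*, *LONP2*, *DPP3* and *CCT8*. Likeness was the root mean square difference between log2(CPM + 1) values after each gene was centred on its mean over the 6 pigs. This difference was 0.0999 for *SEC63*, which encodes a subunit of the protein translocation machinery of the endoplasmic reticulum, and between 0.181 and 0.230 for the other 4, beside a median of 0.780 over all genes compared. *SEC63* averaged 37.8 ± 6.14 CPM (SD, n = 3) in UCP1 KI muscle against 14.5 ± 2.51 CPM (SD, n = 3) in WT muscle. *LONP2* encodes a peroxisomal protease, *DPP3* a dipeptidyl peptidase and *CCT8* a subunit of the cytosolic chaperonin. These genes were picked for sharing the pattern of *CEBPB*, so their own fold changes are no separate result.

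No other member of the family was close to *CEBPB* by this measure. *CEBPD* differed by 0.563, with 679 genes nearer to *CEBPB*. The order of pigs within the groups differed. For the step between the groups, the exact permutation test of the ratio of *CEBPB* to *CEBPD* gave p = 0.4, so no difference was shown. WT replicate 2 was the lowest WT pig for *CEBPB* and the highest for *CEBPD*, and UCP1 KI replicate 2 was the highest UCP1 KI pig for *CEBPB* and the lowest for *CEBPD*. The difference was 0.673 for *CEBPG*, 0.741 for *CEBPZ* and 0.939 for *CEBPA*, the last of these above the median of all genes.

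**Figure D4:**
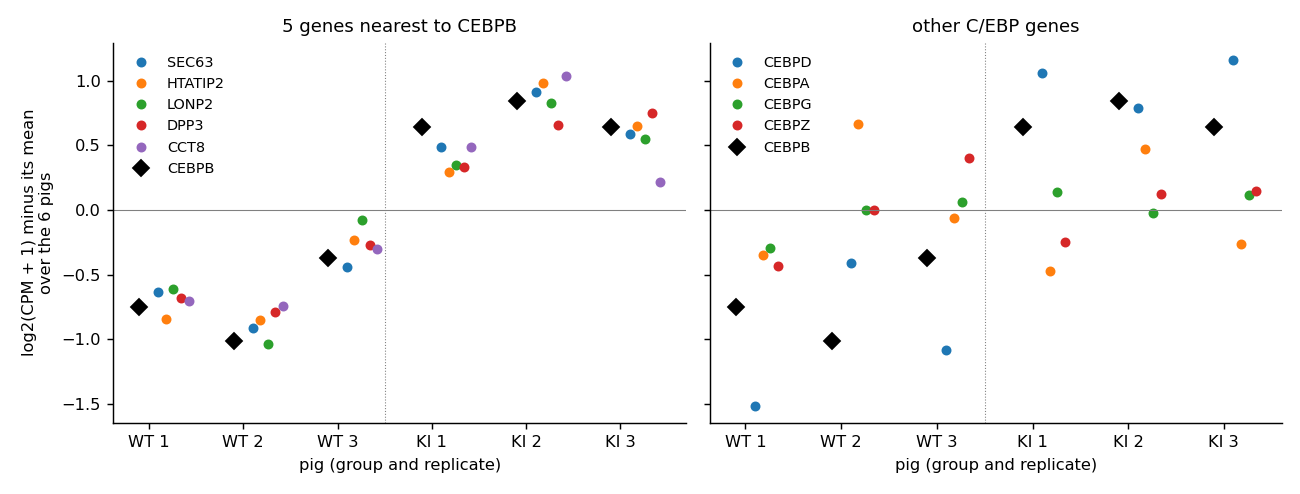
Log2(CPM + 1) minus its mean over the 6 pigs (y axis) in each pig (x axis, group and replicate, KI standing for UCP1 KI) for *CEBPB* (black diamonds) with the 5 genes nearest to it (left) and with the other C/EBP genes (right). The 5 genes follow *CEBPB* with root mean square differences of 0.0999 to 0.230, while *CEBPD*, with 0.563, is also higher in each UCP1 KI pig but has another order of pigs within the groups.

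The members lie at separate places of the pig genome (assembly Sscrofa11.1, RefSeq gene models), except for *CEBPA* and *CEBPG*. *CEBPB* is at chr17:51722633-51723673 and *CEBPD* at chr4:79872863-79874481. *CEBPA* at chr6:43083200-43085884 and *CEBPG* at chr6:43164902-43175002 are 79017 bases apart, and neither gene passed the limits. *CEBPZ* is at chr3:102964213-102988664. The counts are not scaled to transcript length, and the models of the members differ in how much untranslated sequence they hold, so levels are not ranked between members.

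Where a gene lies beside a member, reads could be shared, because the sources used here do not say whether the counting used strand. The model of *SPIDR*, a DNA repair gene, lies 455 bases beyond that of *CEBPD* in chromosome coordinates. The strands of the models were not compared. *SPIDR* was at 6.50, 5.11 and 14.2 CPM in UCP1 KI replicates 1 to 3 and at 2.73, 3.18 and 4.27 CPM in WT replicates 1 to 3. All UCP1 KI pigs were above all WT pigs, and its log2 fold change was 1.34 (95% confidence interval 0.33 to 2.35, unadjusted p = 0.0157 in edgeR). *SPIDR* no longer passed without UCP1 KI replicate 3, at 0.78, or without WT replicate 1, at 1.20. Its order among UCP1 KI pigs followed that of *CEBPD*, with replicate 3 highest and replicate 2 lowest, whereas in WT pigs the highest was replicate 3 for *SPIDR* and replicate 2 for *CEBPD*. Whether the genes share reads was not tested.

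*CEBPZOS*, named for lying opposite *CEBPZ*, overlaps it over 7026 bases of the gene models, so the counts of both are uncertain. *CEBPZOS* averaged 26.2 ± 7.80 CPM (SD, n = 3) in UCP1 KI muscle against 33.8 ± 7.70 CPM (SD, n = 3) in WT muscle, with a log2 fold change of -0.37 and an unadjusted p of 0.248 in edgeR. *NDUFAF7*, an assembly factor of respiratory complex I that lies 8 bases before *CEBPZ* in chromosome coordinates, had a log2 fold change of -0.07. *PEPD*, a dipeptidase gene 2060 bases beyond *CEBPG*, had one of 0.26. A long noncoding RNA, LOC102160718, lies 233 bases from *CEBPA* and had no identifier in the count table, so reads shared with it could not be examined. No gene model lies within 5 kb of *CEBPB*.

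Outside the 5 members, *CEBPE*, the C/EBP gene of granulocytes, was counted 0, 0 and 6 times in UCP1 KI muscle against 2, 0 and 4 times in WT muscle. It was left out of the tests, since so few counts cannot show a difference. *DDIT3* encodes the C/EBP homologous protein CHOP, a stress-induced dimer partner that blocks DNA binding. *DDIT3* was at 34.96, 15.2 and 24.2 CPM in UCP1 KI replicates 1 to 3 and at 20.1, 18.1 and 16.5 CPM in WT replicates 1 to 3. UCP1 KI pigs spanned the whole range of WT pigs, and the log2 fold change of *DDIT3* was 0.44 (95% confidence interval -0.31 to 1.19, unadjusted p = 0.208 in edgeR). It was 0.12 without UCP1 KI replicate 1 and 0.69 without UCP1 KI replicate 2.

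Relatives and dimer partners of the C/EBP proteins showed 1 gene called higher among 9 tested and 0 lower, with a median log2 fold change of -0.07, beside -0.02 over all genes. With 1 pig left out at a time, the median lay between -0.22 without WT replicate 1 and 0.24 without UCP1 KI replicate 3, where 2 genes were called higher. The called gene was *ATF5*, a stress-responsive relative of *ATF4*, at 14.5, 9.99 and 8.37 CPM in UCP1 KI muscle against 4.71, 4.09 and 7.24 CPM in WT muscle. Its log2 fold change was 1.03 (unadjusted p = 0.0160 in edgeR), and *ATF5* no longer passed without UCP1 KI replicate 1, at 0.78, or without a WT pig, replicate 1 at 0.95 and replicate 2 at 0.87. *ATF3*, the most abundant partner, was at 309, 289 and 98.5 CPM in UCP1 KI muscle against 536, 324 and 489 CPM in WT muscle. Every UCP1 KI pig was below every WT pig, but the log2 fold change of -0.96 had an unadjusted p of 0.0694 in edgeR and passed only with DESeq2. *ATF4* and *BATF* had no identifier under their symbols.

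Of 13 tested genes for proteins that modify or degrade C/EBP factors, 1 was called higher and 0 lower, with a median of 0.11, and DESeq2 called 2 higher. The median lay between -0.02 without UCP1 KI replicate 1 and 0.40 without UCP1 KI replicate 3. *TRIB1* and *TRIB2*, which target C/EBP alpha for degradation, had log2 fold changes of 0.02 and 0.16. *GSK3B*, a kinase that phosphorylates C/EBP alpha and C/EBP beta, was called at 0.94 (unadjusted p = 0.0353 in edgeR), with overlapping groups. The call of *GSK3B* was lost without UCP1 KI replicate 2, at 0.58, or without a WT pig, replicate 2 at 0.78 and replicate 3 at 0.81, and also when replicate number entered the model, at 0.94. *CALR*, which can bind C/EBP mRNAs and was the most abundant gene of this list, was at 0.48 (unadjusted p = 0.124 in edgeR). With 1 pig left out, *CALR* lay between 0.23 and 0.66. It passed without UCP1 KI replicate 3, at 0.66, and with library size only, at 0.75.

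Of 18 tested genes of the cytokine and cyclic AMP signals that act on *CEBPB* and *CEBPD*, 3 were called higher and 0 lower, with a median log2 fold change of 0.25. The median was 0.14 when UCP1 KI replicate 1 was removed and 0.37 when WT replicate 2 was. The list had 1 gene called higher without UCP1 KI replicate 2, and 1 higher and 1 lower when WT replicate 3 was left out. *IL6R*, the interleukin-6 receptor, was at 38.2, 37.1 and 27.6 CPM in UCP1 KI muscle against 22.4, 19.1 and 14.2 CPM in WT muscle, without overlap. Its log2 fold change of 0.89 (unadjusted p = 0.0103 in edgeR) passed the limits with each pig left out. *JAK1*, the kinase of the same receptor, was at 0.60 (unadjusted p = 0.0432 in edgeR), and its call remained only without UCP1 KI replicate 1 and was lost at 0.44 to 0.65 without any of the other pigs. *CRTC2*, a coactivator of CREB, was at 0.51 (unadjusted p = 0.0492 in edgeR), close to both limits, and its call was lost at 0.41 to 0.56 without any pig other than WT replicate 2. It was also lost at 0.50 to 0.53 with DESeq2 on all genes, with either other filter on low counts, and when replicate number entered the model.

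*STAT3*, the factor that carries the interleukin-6 signal and the most abundant gene of that list, averaged 132 ± 47.0 CPM (SD, n = 3) in UCP1 KI muscle against 99.7 ± 32.9 CPM (SD, n = 3) in WT muscle, a log2 fold change of 0.40 that did not pass. With 1 pig left out, the value of *STAT3* lay between 0.18 and 0.68. *SOCS3*, a feedback target of this signal, was at 165, 89.5 and 5.01 CPM in UCP1 KI muscle against 19.6, 34.6 and 11.3 CPM in WT muscle. UCP1 KI replicate 3 held the lowest value of the 6 pigs and the other UCP1 KI pigs the highest. The log2 fold change of *SOCS3*, 1.99, had an unadjusted p of 0.0834 in edgeR and 0.022 in DESeq2, and it is named here after its values were seen. Among the genes of the list that did not pass, the lowest log2 fold changes were those of *IL6* (-0.66), *CREB1* (-0.64) and *CRTC3* (-0.59).

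Of 12 tested genes, the glucocorticoid receptor gene and its response genes, 1 was called higher and 2 lower, with a median of 0.08, and 9 did not pass. The number called higher was 2 without UCP1 KI replicate 1, UCP1 KI replicate 3 or WT replicate 1, the number called lower was 1 in 4 of the 6 fits with a pig left out, and the median lay between 0.05 and 0.21. *CDKN1A*, a cell cycle inhibitor, was at 162, 294 and 1026 CPM in UCP1 KI muscle against 59.8, 84.6 and 149.5 CPM in WT muscle, a log2 fold change of 2.33 (unadjusted p = 0.0115 in edgeR). It was 1.22 without UCP1 KI replicate 3, and *CDKN1A* still passed. *DUSP1*, a phosphatase of MAP kinases, was lower in every UCP1 KI pig, at 147, 182 and 158 CPM against 352, 471 and 305 CPM, a log2 fold change of -1.21 (unadjusted p = 0.00217 in edgeR). *SGK1*, at -1.13, lost its call without UCP1 KI replicate 2, at -1.11, UCP1 KI replicate 3, at -0.95, WT replicate 1, at -0.55, or WT replicate 2, at -1.22, and also with library size only, at -0.96. *PDK4*, the most abundant gene of the list, was at -0.21 and did not pass. Of the 12 genes tested, 6 had a positive log2 fold change and 6 a negative one. Those positive without passing included *KLF9* (0.78), *ZBTB16* (0.71), *FKBP5* (0.63) and *PER1* (0.45). *NR3C1*, the receptor gene, was at -0.86 with every UCP1 KI pig below every WT pig, and did not pass. *TSC22D3*, *MT1A*, *MT2A* and *GLUL* had no identifier under their symbols.

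Of 17 tested genes of the adipogenic cascade, 0 were called higher and 2 lower, 15 did not pass, and the median log2 fold change was -0.45, or -0.08 without WT replicate 2. *KLF4*, an early factor of adipogenesis, was at 46.0, 34.8 and 37.3 CPM in UCP1 KI muscle against 110, 99.0 and 59.8 CPM in WT muscle, a log2 fold change of -1.19 (unadjusted p = 0.00383 in edgeR) that passed with each pig left out. *EGR2*, also known as *KROX20*, was at -1.34 and lost its call without UCP1 KI replicate 1, at -1.38, UCP1 KI replicate 3, at -1.05, WT replicate 1, at -1.27, or WT replicate 2, at -1.02, and also with library size only, at -1.07. *RXRA*, the dimer partner of *PPARG* and the most abundant gene here, was at 0.19 and did not pass.

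Acute phase and cytokine genes known as C/EBP targets had 1 gene called higher and 1 lower among 8 tested, with a median of 0.05, or -0.07 when UCP1 KI replicate 1 was removed and 1.02 when WT replicate 2 was. *IL1B*, *HP*, *ORM1*, *SAA3* and *IL1RN* had no identifier under their symbols. Complement *C3* was at 45.8, 99.8 and 10.2 CPM in UCP1 KI muscle against 10.6, 10.2 and 8.98 CPM in WT muscle. *C3* was high in UCP1 KI replicates 1 and 2 only, and replicate 3 lay within the WT range. Its log2 fold change was 2.39 (unadjusted p = 0.00963 in edgeR) and fell to 1.50 without UCP1 KI replicate 2. *LCN2*, lipocalin, was lower at -0.99 (unadjusted p = 0.0333 in edgeR), between 3.29 and 3.75 CPM in UCP1 KI muscle against 4.004 to 10.5 CPM in WT muscle, and of the 6 fits with a pig left out it kept its call in that without WT replicate 3. Without each of the other pigs the value of *LCN2* was between -1.06 and -0.56, and its call was also lost with library size only, at -0.69, and when replicate number entered the model, at -0.88.

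Muscle atrophy and regeneration genes linked to *CEBPB* held the largest share of called genes among the lists of known C/EBP signals and targets, with 4 of 12 higher, 0 lower and a median of 0.62. *MSTN*, myostatin, an inhibitor of muscle growth, had the lowest log2 fold change of the list, -1.43, with an unadjusted p of 0.0556 in edgeR and 0.0261 in DESeq2. The list had 1 gene called lower in both DESeq2 fits, with all genes with any count in edgeR, and when replicate number entered the model. *FBXO32* (atrogin-1), a muscle ubiquitin ligase, was at 215, 330 and 1058 CPM in UCP1 KI muscle against 135, 166 and 228 CPM in WT muscle. *TRIM63* (MuRF1), the other main ligase of atrophy, was at 369, 371 and 1734 CPM in UCP1 KI muscle against 192, 232 and 386 CPM in WT muscle. Both were highest in UCP1 KI replicate 3.

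The log2 fold changes were 1.60 for *FBXO32* and 1.61 for *TRIM63*, with unadjusted p values of 0.0280 and 0.0416 in edgeR, and without UCP1 KI replicate 3 they were 0.62 and 0.46 and no longer passed. Both calls were also lost without WT replicate 1, at 1.42 and 1.40, and without WT replicate 2, at 1.55 and 1.51. *FOXO1*, a forkhead factor that drives these ligases, was at 46.3, 68.0 and 85.6 CPM in UCP1 KI muscle against 21.1, 27.8 and 38.4 CPM in WT muscle. It had a log2 fold change of 1.20 (unadjusted p = 0.00683 in edgeR) and passed with each pig left out. *FOXO3* was at 0.84 and lost its call without UCP1 KI replicate 2, at 0.60, or without a WT pig, replicate 1 at 0.81 and replicate 2 at 0.68. The number of called genes on this list was 1 higher without WT replicate 2, and 2 higher and 1 lower when UCP1 KI replicate 3 or WT replicate 1 was removed.

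For *CEBPZ*, 21 ribosome biogenesis, METTL3 complex and NF-Y genes were followed, and 1 was called higher and 0 lower, with a median of 0.02. *RRP12*, a factor of ribosomal subunit export, was at 0.70 (unadjusted p = 0.0455 in edgeR), and its call remained only without WT replicate 3 and was lost at 0.48 to 0.75 without any of the other pigs. *NPM1*, nucleophosmin, the most abundant of them, was at -0.07.

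Immediate early genes, which like *CEBPB* are induced within minutes to hours of a stimulus, had 0 genes called higher and 3 lower among 15 tested, with a median log2 fold change of -0.29. Without UCP1 KI replicate 3, 2 were called higher and 3 lower and the median was -0.13, and without UCP1 KI replicate 1 the median was -0.67. *FOSB* was at 16.2, 10.4 and 6.20 CPM in UCP1 KI muscle against 41.4, 26.8 and 23.1 CPM in WT muscle, a log2 fold change of -1.48 (unadjusted p = 0.00660 in edgeR). *NR4A1*, a nuclear receptor, was at -1.19 and *IER2* at -1.04, with unadjusted p values of 0.00472 and 0.00773 in edgeR. For all 3 genes the UCP1 KI pigs lay wholly below the WT pigs, and the genes passed with each pig left out. The genes *FOS*, *JUN* and *EGR1* were at -0.29, -0.14 and -0.22 and did not pass. Of the 15 tested, 10 had a negative log2 fold change and 5 a positive one. The highest were *JUNB* (0.70), *KLF6* (0.63) and *ZFP36* (0.53), which did not pass either.

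Of 13 heat shock genes tested, 3 were called higher and 0 lower, and the median was 0.66. The only one with a negative log2 fold change was *DNAJB1*, at -0.70, which did not pass. *HSPA1A*, *HSPA1B* and *HSP90AA1* had no identifier under their symbols. *ZFAND2A*, an arsenite- and heat-inducible proteasome adaptor, was at 78.0, 117 and 117.5 CPM in UCP1 KI muscle against 21.0, 18.3 and 25.8 CPM in WT muscle, a log2 fold change of 2.27 (unadjusted p = 4.4e-05 in edgeR). *BAG3*, a co-chaperone, was at 1.15 and *HSF1*, the heat shock factor, at 0.66. Both lost their calls without UCP1 KI replicates 1 or 2 or WT replicates 1 or 2, at 0.93 to 1.14 and 0.52 to 0.67. *CRYAB*, the most abundant of these genes, was at 0.75, or between 0.39 and 1.18 with 1 pig left out. It passed only without UCP1 KI replicate 3, at 1.18. Without that pig 7 of the 13 were called, and when either of replicates 1 and 2 of either group was left out, 1 was.

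**Figure D5:**
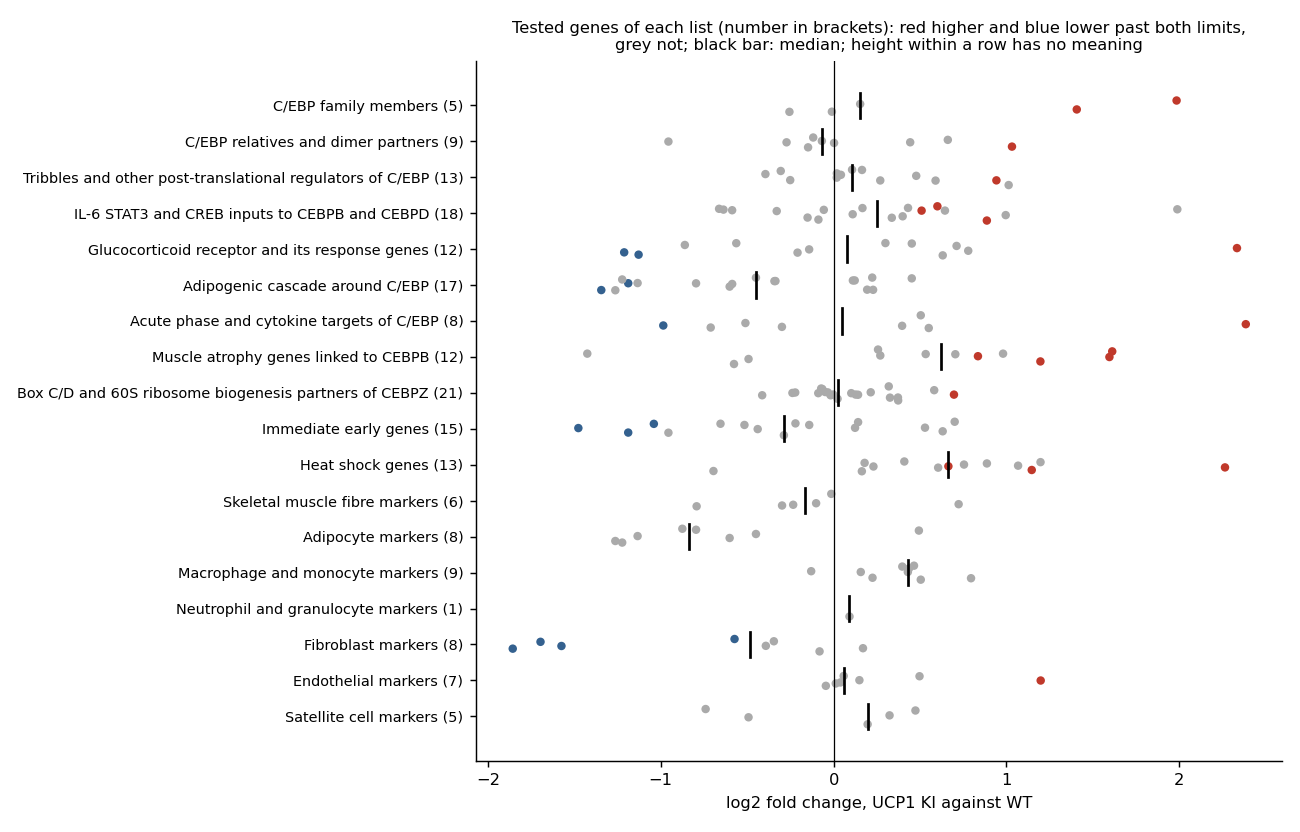
Log2 fold change (x axis, UCP1 KI against WT) of each tested gene (points) in the 18 lists, red where called higher, blue where called lower and grey where not called, with the median of each list as a black bar. Red points of the C/EBP family are *CEBPD* at 1.99 and *CEBPB* at 1.41, the muscle atrophy list has 4 red and 0 blue points, and the immediate early and fibroblast lists have 3 and 4 blue and 0 red points.

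Since C/EBP genes are expressed in several cell types of muscle, markers of these cells were read beside them. The tissue label was borne out by muscle fibre genes, of which *ACTA1*, skeletal actin, reached 41300 ± 13220 CPM (SD, n = 3) in UCP1 KI muscle against 50780 ± 3584 CPM (SD, n = 3) in WT muscle. Of 6 fibre markers tested, 0 were called, with a median of -0.17 that lay between -0.45 without UCP1 KI replicate 1 and 0.19 without UCP1 KI replicate 2. *MYH1*, *MYH2*, *MYH7*, *TTN*, *MB* and *RYR1* had no identifier under their symbols.

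Markers of adipocytes, the cells in which the knock-in is expressed, summed to between 156 and 287 CPM in UCP1 KI muscle against 132.5 to 403 CPM in WT muscle. Of 8 tested, 0 were called and 7 had a negative log2 fold change, with a median of -0.84, or -0.05 without WT replicate 2. With 1 pig left out, 2 were called lower without WT replicate 1, 1 lower without UCP1 KI replicate 2 and 1 higher without WT replicate 3. *FABP4*, the most abundant of them by its mean over the 6 pigs, which WT replicate 2 raised with 253 CPM, was at -1.22. It was -0.08 when that library was left out, and it passed only without WT replicate 1, at -1.65, or when replicate number entered the model, at -0.92. *PLIN4*, a lipid droplet protein gene, took more reads than *FABP4* in 4 of the 6 libraries, and its log2 fold change was 0.49, which did not pass. The defining adipocyte gene *ADIPOQ* averaged 3.24 ± 1.72 CPM (SD, n = 3) in UCP1 KI muscle against 7.80 ± 7.16 CPM (SD, n = 3) in WT muscle.

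Macrophage markers summed to between 46.8 and 187 CPM in UCP1 KI muscle against 52.2 to 136 CPM in WT muscle, with 0 of 9 called and a median of 0.43, which was -0.20 without UCP1 KI replicate 2. *C1QB*, the most abundant, was at 0.47, or between -0.26 and 1.06 with 1 pig left out, 1 marker was called higher without UCP1 KI replicate 3, and *LYZ* was counted 0 times in all 6 libraries. Neutrophil markers summed to between 0.901 and 2.98 CPM in UCP1 KI muscle against 0.386 to 0.950 CPM in WT muscle, with *MPO* counted 0 times in all 6 libraries, and the gene tested, *ELANE*, was at 0.09, or between -0.33 and 0.46 with 1 pig left out. Without WT replicate 2, 3 neutrophil markers were tested and 1 was called higher, with a median of 1.33, and without UCP1 KI replicate 3 the median of the 3 tested was 1.77. Satellite cell markers had 0 of 5 called, with *CDH15*, the most abundant, at 0.32 and a median of 0.20, which was -0.21 when UCP1 KI replicate 2 was removed and -0.08 when WT replicate 1 was. Endothelial markers had 1 of 7 called higher, *TEK*, the angiopoietin receptor, at 1.20, and *PECAM1*, the most abundant, was at 0.01, with a median of 0.06 that lay between -0.19 without WT replicate 3 and 0.40 without WT replicate 1.

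Among 8 fibroblast markers, 0 were called higher and 4 lower, 4 did not pass, and the median was -0.48. Without WT replicate 2 the number called lower was 2. Their summed level was 277 to 454 CPM in UCP1 KI muscle against 760 to 1220 CPM in WT muscle, without overlap. Most of this sum in WT muscle came from *COL1A1*, *COL1A2* and *COL3A1*, with means of 132, 198 and 412 CPM. The sum is thus no separate result from these genes. The called genes were the collagens *COL1A1* (-1.86), *COL1A2* (-1.70) and *COL3A1* (-1.57) and the proteoglycan gene *LUM* (-0.57). Of the fits with a pig left out, *LUM* kept its call in that without WT replicate 3, with values from -0.65 to -0.45 without each of the other pigs. Its call was also lost with library size only, at -0.31, in both fits on all genes with any count, at -0.57 and -0.55, and when replicate number entered the model, at -0.55, and *COL3A1* lost it without WT replicate 2, at -1.31. The other markers tested, *PDGFRA*, *DPT*, *DCN* and *PI16*, were at -0.08, 0.17, -0.39 and -0.35 and did not pass. The part of these cell types in the levels of *CEBPB* and *CEBPD* was not tested.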

How the data were processed

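Total RNA of 6 longissimus dorsi samples, 3 per genotype, was sequenced by the authors as paired-end mRNA libraries. Per the labels' processing notes and the methods, reads were checked with FastQC 0.11.2, trimmed with Trimmomatic 0.36 and mapped with HISAT2 2.0 to Sscrofa11.1, and StringTie 1.3.3b and DESeq2 1.12.4 were used. The deposited values are raw read counts per Ensembl gene, without normalization. The program that counted reads, the annotation release and the strand setting are not given in the sources used here. 0 columns were left unused.

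Genes were kept by edgeR 4.0.16 filterByExpr in R 4.3.3 (13402 of 20062 with any count), scaled by TMM and compared with edgeR's quasi-likelihood F test, which is two-sided, with condition as the only term, over all genes. Confidence intervals used the standard error, which is the log2 fold change divided by the square root of F. Ratios within a library added 0.5 counts to each gene. The procedure was tested on simulated data. The members and the 18 gene lists were chosen with earlier results of these data known, so list counts are descriptions. Named genes were all members, *CEBPE*, *DDIT3*, genes within 5 kb of a member, the 5 genes most like *CEBPB*, and from each list up to 6 called genes and the most abundant one, of which 1 is not reported here. Values of *SOCS3*, *TRIB1*, *TRIB2*, *FOS*, *JUN*, *EGR1*, *ADIPOQ*, *LYZ*, *MPO*, *PDGFRA*, *DPT*, *DCN*, *PI16*, *PLIN4*, *IL6*, *CREB1*, *CRTC3* and *MSTN* were added after they were seen. The same holds for *JUNB*, *KLF6*, *ZFP36*, *KLF9*, *ZBTB16*, *FKBP5*, *PER1*, *NR3C1* and *DNAJB1*. Symbols came from a table that named 14864 identifiers, and positions from RefSeq models of Sscrofa11.1. Listed genes without an identifier under their symbols were left out of the lists. Alternatives were DESeq2 1.42.0, other scalings and filters, the replicate number as a block, and each pig left out. Sequences and promoter motifs were not analysed here.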

Additional observations from a re-analysis of the deposited data

How the results depend on the processing

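The log2 fold changes of *CEBPB* and *CEBPD* kept their direction and passed both unadjusted limits in all 13 alternatives, between 1.27 and 1.66 for *CEBPB* and between 1.75 and 2.35 for *CEBPD*, and 2 members were called in each of these. With a limit of 0.05 on the Benjamini-Hochberg adjusted p of edgeR in place of the unadjusted p, 0 members and 0 genes in all passed. This depended on the tool and setting. DESeq2 on the same genes passed 127 genes and 2 members at this limit. With edgeR, 1 gene passed with library size only and 1 on all genes with any count. Leaving out 1 pig at a time gave between 678 and 1541 called genes in place of 1097, the lowest numbers being 678 when UCP1 KI replicate 2 and 718 when WT replicate 2 was left out, where the cause was not tested. With library size only, the median over all genes tested rose from -0.02 to 0.24, 929 genes were called higher and 195 lower in place of 515 and 582, and *CEBPA* (0.11) and *CEBPZ* (0.28) changed sign without passing. *CEBPG* was positive in all 13 alternatives, between 0.04 and 0.42.

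The differences in the log2 ratio of *CEBPB* to its relatives kept their sign under every alternative. With each pig left out they ranged from 1.13 to 2.02 for *CEBPA*, from -1.08 to -0.38 for *CEBPD*, from 1.07 to 1.37 for *CEBPG* and from 1.25 to 1.61 for *CEBPZ*.

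The replicate numbers are shared by both groups, but same-numbered libraries did not deviate together throughout, with correlations of 0.00383, 0.0943 and 0.283 for replicates 1 to 3, so the number was not taken as a pairing. With the replicate block, 1114 genes were called, *CEBPB* was at 1.43 and *CEBPD* at 2.06, and 2 members were called. Ratios as differences within numbered pairs were unchanged in size, and the exact sign-flip p could not fall below 0.25. Among the 57 tested genes named by the rules above, 36 were past the limits, and 20 of these passed in all alternatives. Of the 21 that were not past them, 4 passed in at least 1. These counts leave out the genes added after their values were seen, among which *SOCS3* and *MSTN* passed with DESeq2.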
